A study of Mus musculus with 42 samples.

Results

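Kidneys lacking both Tsc2 and Tfeb in the tubular epithelium were compared with control kidneys after all of these mice had received rapamycin. The comparison rests on 6 of the 42 libraries of the series, 3 from double knockout (DKO) mice and 3 from control mice, chosen by genotype and treatment alone. The labels call the genotypes Tsc2+Tfeb DKO and wild type. The paper describes DKO mice as KspCre+; Tsc2fl/fl; Tfebfl/fl and the controls as Cre-negative, on a C57BL/6 background, while the labels name KSP-Cre for both groups and give no Cre status for single mice. Both groups were injected intraperitoneally with 1 mg/kg rapamycin 3 times per week from postnatal day 25, 11 injections in all, and kidneys were taken at day 50. The same genotypes were also sequenced after vehicle injections and, in another table, untreated at the same age, with 3 mice in each group. Those 12 libraries share no mouse with the 6 and serve as a reference. KSP-Cre Tsc2 KO mice, which lack Tsc2 alone, were sequenced untreated, after vehicle and after the same rapamycin course, and untreated KSP-Cre Tfeb KO mice lack Tfeb alone, again with 3 libraries per group. Their levels are given beside a few genes, and the Tsc2 KO libraries of the drug cohort also enter the fit of 6 groups that estimates the spread. KspCre is driven by the cadherin 16 promoter and is active in tubular epithelium, whereas RNA came from whole kidney, so each value averages recombined and non-recombined cells. In such bulk samples fewer cells of a type and less RNA per cell cannot be told apart. By that description DKO and control mice also differ in Cre itself, and the effect of Cre and that of the deletions cannot be told apart.

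TSC2 is part of the TSC complex, which switches off the small GTPase RHEB and thereby restrains mTORC1, the kinase complex that couples nutrient supply to growth. TFEB is a transcription factor of the MiT/TFE family that drives lysosomal and autophagy genes and is itself an mTORC1 substrate, tethered to lysosomes through Rag GTPases. Rapamycin binds FKBP12 and blocks mTORC1 in part. The comparison addresses what remains of the gene expression difference between DKO and control kidneys when mTORC1 is inhibited in both.

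The 6 libraries held between 17601731 and 22807605 reads counted on genes, and FPKM denotes the deposited fragments per kilobase scaled to library size. The tubular markers fitted the label: Cdh16 stood at 398 ± 17 FPKM (SD, n = 3) in rapamycin control and 409 ± 6.8 FPKM in rapamycin DKO kidneys. The summed level of 23 proximal tubule markers ranged from 7432 to 8175 FPKM in the control and from 7470 to 7859 FPKM in the DKO libraries. Adrenal cortex markers summed to at most 1.93 FPKM in the 6 libraries, with Cyp11b1 at or near 0, but reached 309 and 4316 FPKM in 2 of the 3 vehicle DKO libraries. Vehicle Tsc2 KO libraries 1 and 2 reached 1406 and 51.3 FPKM, and they were not left out of the fit that estimates the spread. Untreated DKO library 1 also stood apart, with macrophage markers summing to 963 FPKM against 94.6 and 128 FPKM in the other 2 untreated DKO libraries, B cell markers to 193 against 6.40 and 9.23 FPKM, and proximal tubule markers to 3362 against 6458 and 5080 FPKM. The counts of called genes in the vehicle and untreated arms, and some of the list medians and calls, are therefore also given without these DKO libraries, a choice made after their values were seen. The 2 vehicle DKO libraries are called the adrenal libraries below. Adipocyte markers varied within both rapamycin groups, from 32.1 to 217 FPKM in control and from 6.30 to 480 FPKM in DKO libraries, and their part in the results was not tested. Every library of the drug cohort had at least 3664 reads of Xist and at most 13 reads over 4 Y-linked markers.

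The targeted genes were read first. Tsc2 stood at 8.18, 8.56 and 8.93 FPKM in the control libraries and at 5.85, 5.97 and 5.83 FPKM in the DKO libraries. The groups did not overlap, and the log2 fold change was -0.54 (SE 0.10, 95% interval -0.76 to -0.32). Its adjusted p, from the quasi-likelihood test of edgeR, adjusted by Benjamini-Hochberg across 17027 genes, was 0.19, and over the alternative settings it ranged from 5.65e-05 to 0.892. Tfeb stood at 6.66, 7.0 and 4.47 FPKM in control and at 3.27, 3.29 and 3.26 FPKM in DKO libraries. All 3 DKO libraries lay below all 3 controls, with control replicate 3 the nearest to them, and the log2 fold change was -0.88 (SE 0.18, adjusted p = 0.28, range over the settings 0.000705 to 1). Both targeted genes thus passed the test with DESeq2 but not with edgeR. In vehicle mice the log2 fold changes were -0.62 for Tsc2 and -0.66 for Tfeb (-0.57 and -0.77 without the 2 adrenal libraries, where the adjusted p was 0.15 and 0.34, edgeR), and in untreated mice -0.72 and -0.88. The contrast under rapamycin did not differ detectably from that under vehicle for either gene (interaction adjusted p = 0.83 for Tsc2 and 0.72 for Tfeb, edgeR). Mitf, a related MiT/TFE factor, stood at 4.04 ± 0.34 FPKM in control and 3.62 ± 0.24 FPKM in DKO kidneys.

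With rapamycin on both sides, 1 gene was called higher in DKO kidneys and none lower. A call required an adjusted p of at most 0.05 and a mean of at least 5 FPKM in either group, and 1 call is 0.0134% of the 7470 genes that reached this level. Without the FPKM minimum 3 of 17027 genes (0.0176%) passed. At an unadjusted p under 0.05 edgeR counted 703 genes, or 4.13%, with 425 higher and 278 lower, and DESeq2 fitted to all 6 groups called 4 genes higher and 7 lower. In vehicle mice the same genotypes differed in 651 of 7735 genes (8.42%), 415 higher (5.37%) and 236 lower (3.05%), and in untreated mice in 299 of 7689 genes (3.89%), 179 higher (2.33%) and 120 lower (1.56%). Without the 2 adrenal libraries the vehicle counts were 96 (1.25%) and 2 (0.026%), and with 1 library left out in turn they ranged from 178 to 451 and from 62 to 312. Without untreated DKO library 1 the untreated counts were 142 (1.87%) and 47 (0.62%), and over all single libraries left out they ranged from 43 to 145 and from 11 to 83, lowest without control library 1. Over the 7470 genes the median absolute log2 fold change was 0.10 under rapamycin and 0.21 under vehicle. The 95% interval under rapamycin extended by a median of 0.32 to either side, and for 7246 of these genes (97.0%) by less than 1 on the log2 scale. DESeq2 restricted to the 2 rapamycin groups called 50 genes higher and 48 lower, so the count depends on the tool. Chromosome 17, which carries both Tsc2 and Tfeb, held no call, and 40 of its 808 tested genes (4.95%) had an unadjusted p under 0.05.

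**Figure D1:**
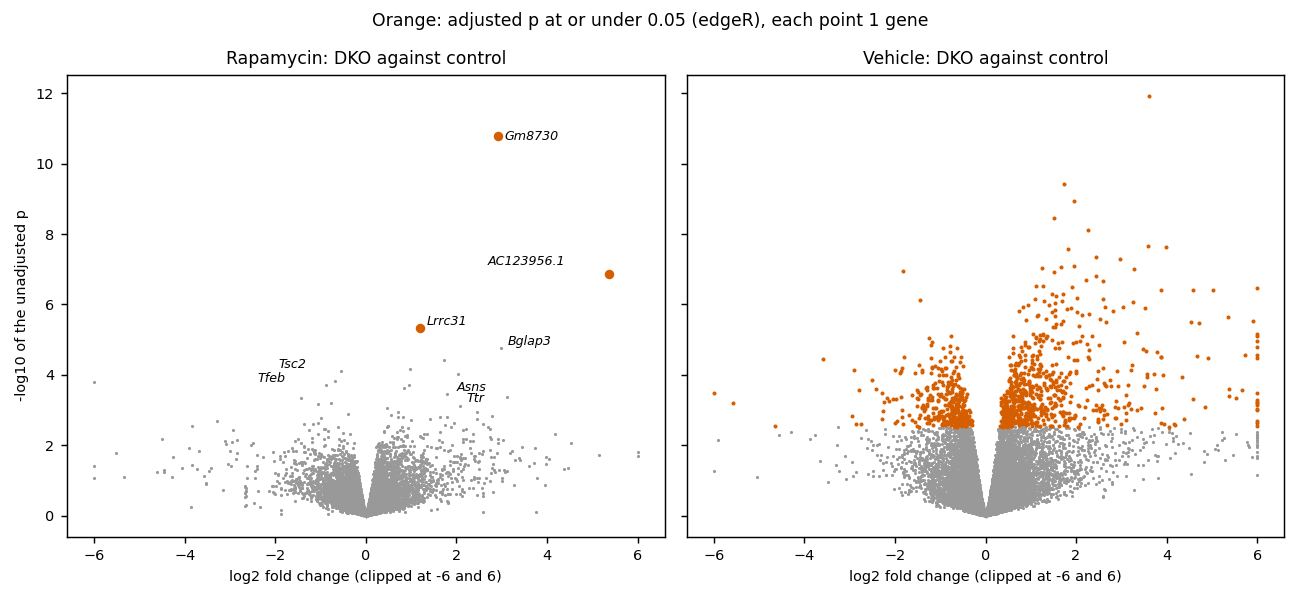
Each point is 1 of 17027 genes, with the log2 fold change of DKO against control on the x axis and -log10 of the unadjusted edgeR p on the y axis, for rapamycin mice on the left and vehicle mice on the right. Orange marks an adjusted p of at most 0.05, which 3 genes reached under rapamycin.

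The gene called was Gm8730 (ENSMUSG00000063696), annotated as a processed pseudogene on chromosome 8 at 102864845 to 102865798, minus strand (mm10). Its levels were 5.52, 5.27 and 5.85 FPKM in control and 43.8, 43.6 and 37.5 FPKM in DKO libraries. The groups lay far apart, with a log2 fold change of 2.91 (SE 0.17, adjusted p = 2.8e-07, edgeR), and it was called under all 14 alternative settings. The same separation was present in mice that never received rapamycin, at 3.88 ± 0.68 FPKM in vehicle control and 47.5 ± 5.1 FPKM in vehicle DKO kidneys. Kidneys with Tfeb deleted alone, which carry KspCre too, stood at 47.3, 82.2 and 38.7 FPKM. Untreated Tsc2 KO libraries 1 and 2 stood at 35.3 and 30.3 FPKM, while library 3 stood at 3.39 FPKM, a control-like level. Tsc2 itself was low in library 3 too. It stood at 3.54, 3.81 and 4.37 FPKM in untreated Tsc2 KO libraries 1 to 3, against 8.77, 9.26 and 8.75 FPKM in the untreated controls. A processed pseudogene can share reads with its parent gene or another copy, so the source of the Gm8730 reads is uncertain.

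AC123956.1 (ENSMUSG00000116972), a processed pseudogene on chromosome 16 at 85644252 to 85645023, plus strand, passed the adjusted p but not the FPKM minimum. It had 0, 1 and 1 reads in the control libraries and 31, 27 and 45 reads in the DKO libraries (adjusted p = 0.0011, edgeR). Over the settings its adjusted p ranged from 0.000319 to 0.0931, the highest with edgeR on the 2 groups alone. It was also present in the untreated Tfeb KO kidneys, at 2.85, 1.97 and 1.60 FPKM, and was listed at 0 in untreated Tsc2 KO library 3. The same caution about shared reads applies.

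Lrrc31, a leucine-rich repeat gene on chromosome 3, was the only protein-coding gene with an adjusted p of at most 0.05. It stood at 1.16, 1.18 and 0.981 FPKM in control and at 2.87, 2.41 and 2.37 FPKM in DKO libraries. Every DKO library was above every control, by a log2 fold change of 1.2 (SE 0.18, adjusted p = 0.027, edgeR), although the gene stayed under the FPKM minimum. Over the settings its adjusted p ranged from 5.49e-07 to 0.212. The difference was 1.82 on the log2 scale in vehicle and 1.47 in untreated mice.

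The next genes by p-value, named here after their values were seen, did not pass the adjusted threshold with edgeR. Bglap3, of the osteocalcin family, stood at 0.132, 0.446 and 0.701 FPKM in control and at 4.12, 4.48 and 1.69 FPKM in DKO libraries (log2 fold change 2.98, SE 0.49, adjusted p = 0.074). Kcns1, a modifier subunit of potassium channels, stood at 0.384, 0.378 and 0.245 FPKM in control and at 1.23, 1.24 and 0.875 FPKM in DKO libraries (1.72, SE 0.31, adjusted p = 0.13). Over the edgeR and DESeq2 settings the lowest adjusted p was 5.43e-07 for Bglap3 and 0.00054 for Kcns1. In both genes the groups did not overlap, and both passed the adjusted p in vehicle mice (0.0067 for Bglap3 and 8.6e-05 for Kcns1, edgeR), also without the 2 adrenal libraries (0.033 and 0.0018).

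Ttr, which encodes the thyroxine and retinol carrier transthyretin, stood at 30.3, 30.5 and 42.4 FPKM in control and at 219, 98.4 and 119 FPKM in DKO libraries. All DKO libraries were above all controls, and the log2 fold change was 2.08 (SE 0.50, adjusted p = 0.69, edgeR, lowest over the edgeR and DESeq2 settings 0.00024). In vehicle mice Ttr stood at 37.0 ± 11 FPKM in control and 890 ± 400 FPKM in DKO kidneys, which is 4.59 on the log2 scale (adjusted p = 0.00025, and 0.00063 without the 2 adrenal libraries, edgeR). The test of the difference between the 2 contrasts gave -2.51 (adjusted p = 0.16, edgeR). Ucp2, a mitochondrial carrier, stood at 14.7, 16.7 and 15.7 FPKM in control and at 37.6, 20.9 and 24.7 FPKM in DKO libraries (0.82, SE 0.22, adjusted p = 0.95, edgeR, lowest over the settings 0.0039), with DKO library 1 the highest.

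The lowest p-values among the genes with less RNA in DKO kidneys included 3 that DESeq2 called and edgeR did not. Gcgr, the glucagon receptor, stood at 15.1, 20.4 and 13.0 FPKM in control and at 9.04, 8.35 and 5.87 FPKM in DKO libraries (log2 fold change -1.06, SE 0.25). Slc18a1, a vesicular monoamine transporter, stood at 28.7, 30.9 and 22 FPKM in control and at 14.3, 13.9 and 19.7 FPKM in DKO libraries (-0.77, SE 0.18). Neither gene had overlapping groups. Metap1d, a mitochondrial methionine aminopeptidase, gave -1.44 (SE 0.33). The adjusted p-values of these 3 genes in edgeR lay between 0.49 for Metap1d and 0.64 for Gcgr.

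Asns and Slc1a4, both named after their values were seen, are amino acid genes known as targets of ATF4, the transcription factor of the amino acid stress response. ASNS makes asparagine and SLC1A4 carries small neutral amino acids. Their promoter windows, 250 bases before to 50 after the start site in RefSeq (GRCm38.p6), are printed because both hold the motif TGATGNAA, the composite element that ATF4 and C/EBP proteins can bind. The motif was searched on both strands and is in capitals, in Slc1a4 as its reverse complement TTGCATCA. The first window is chr6:7693160-7693459 and the second chr11:20332664-20332963, both on the minus strand.
Asns: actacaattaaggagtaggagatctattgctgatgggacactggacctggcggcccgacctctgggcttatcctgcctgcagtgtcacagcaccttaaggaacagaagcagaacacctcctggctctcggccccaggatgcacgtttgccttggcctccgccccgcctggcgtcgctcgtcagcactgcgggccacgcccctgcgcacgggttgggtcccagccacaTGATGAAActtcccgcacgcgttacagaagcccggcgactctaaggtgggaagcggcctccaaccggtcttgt
Slc1a4: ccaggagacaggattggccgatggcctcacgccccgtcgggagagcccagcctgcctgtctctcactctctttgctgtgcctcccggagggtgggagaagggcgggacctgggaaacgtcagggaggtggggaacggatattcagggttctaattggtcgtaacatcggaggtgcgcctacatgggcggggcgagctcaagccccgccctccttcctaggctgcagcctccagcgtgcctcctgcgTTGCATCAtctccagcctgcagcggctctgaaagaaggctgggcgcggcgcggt

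The motif begins 23 bases upstream of the start site in Asns and 4 bases upstream in Slc1a4. It was present in 1304 of 32851 promoter windows (3.97%), and in 7 of the 21 genes of the list of ATF4 targets and serine and one-carbon enzymes for which a window was found. A match of these letters is a description and does not show a bound site.

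Asns stood at 0.910, 1.04 and 1.85 FPKM in control and at 4.75, 3.74 and 4.74 FPKM in DKO libraries under rapamycin. The groups did not overlap (log2 fold change 1.80, SE 0.40, 95% interval 0.95 to 2.64, adjusted p = 0.44, edgeR, lowest over the edgeR and DESeq2 settings 6.25e-07). The difference was 1.22 in vehicle and 1.21 in untreated mice, and in rapamycin Tsc2 KO kidneys Asns stood at 2.20 ± 0.38 FPKM. Slc1a4 stood at 3.54, 5.01 and 4.31 FPKM in control and at 9.95, 6.36 and 8.97 FPKM in DKO libraries (0.97, SE 0.18, adjusted p = 0.19, edgeR, lowest over the edgeR and DESeq2 settings 0.00075). Under vehicle its groups overlapped, at 5.31 ± 0.51 FPKM in control and 4.99 ± 1.2 FPKM in DKO kidneys, and the test of the difference between the contrasts gave 1.06 (SE 0.26, adjusted p = 0.10, edgeR). In untreated mice, without DKO library 1, the Slc1a4 difference was 0.64 (adjusted p = 0.15, edgeR), in the same direction as under rapamycin. In rapamycin Tsc2 KO kidneys Slc1a4 stood at 4.35 ± 0.066 FPKM, the level of the rapamycin controls.

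**Figure D2:**
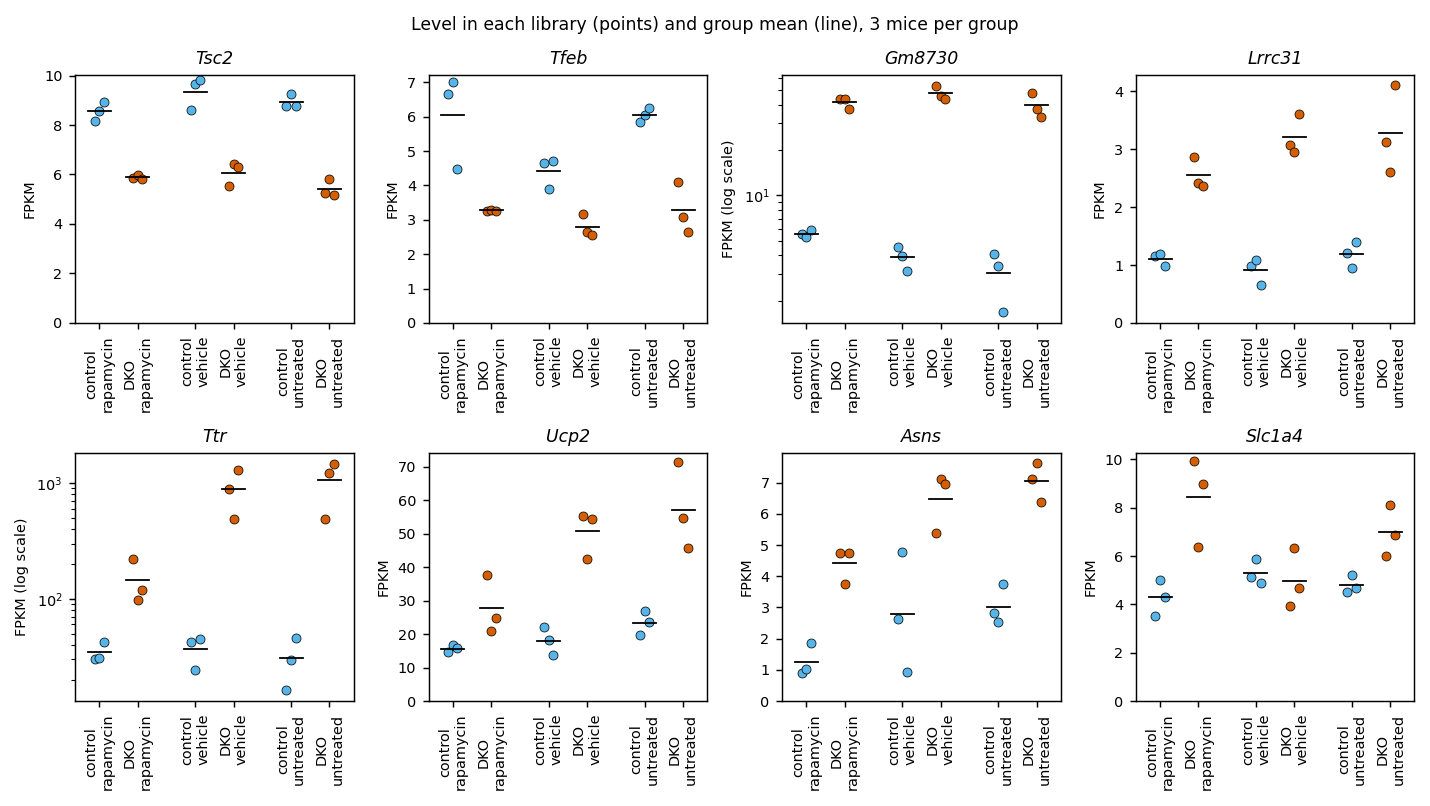
FPKM of 8 genes in each library (points, 3 mice per group) with the group mean (line), for control and DKO mice under rapamycin, under vehicle and untreated, with log axes for Gm8730 and Ttr. For Ttr the DKO libraries under rapamycin lie above every control library and below every DKO library of the other arms, while Slc1a4 is highest in DKO kidneys under rapamycin.

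The mTORC1 and Rag genes that the study follows were close in DKO and control kidneys under rapamycin. Rragd, a Rag GTPase and TFEB target, stood at 13.3, 12.8 and 12.7 FPKM in control and at 12.8, 16.9 and 15.3 FPKM in DKO libraries, so that the groups overlapped (log2 fold change 0.22, 95% interval -0.20 to 0.63). It had been called in vehicle mice, at 18.5 ± 4.2 FPKM in control and 30.4 ± 7.1 FPKM in DKO kidneys (0.72, adjusted p = 0.039, edgeR), a call lost without the 2 adrenal libraries (0.82, adjusted p = 0.17, edgeR). The difference between the contrasts was -0.51 (adjusted p = 0.44, edgeR). Rragc, the paralogue of Rragd, gave 0.12 (95% interval -0.18 to 0.41), with 22.3 ± 0.95 FPKM in control and 24.2 ± 1.1 FPKM in DKO kidneys. Lamtor1, the lysosomal anchor of the Rag GTPases, gave -0.01 (-0.36 to 0.33). Flcn, whose product activates RAGC and RAGD, gave 0.00 (-0.26 to 0.27), and Rheb gave -0.02 (-0.26 to 0.23). In these last 4 genes the intervals exclude a log2 fold change of 1 in either direction.

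Mthfd2, a mitochondrial folate enzyme, stood at 1.28, 1.74 and 1.83 FPKM in control and at 1.78, 1.64 and 1.56 FPKM in DKO libraries under rapamycin. The groups overlapped (log2 fold change 0.03, 95% interval -0.36 to 0.43). Under vehicle the difference was 1.34 (SE 0.19, adjusted p = 0.00075, edgeR), and 1.25 without the 2 adrenal libraries. The difference between the contrasts was -1.30 (SE 0.26, adjusted p = 0.040, edgeR). No group mean of Mthfd2 in these arms reached 5 FPKM, so it does not count among the called genes. Gpnmb, a lysosomal and melanosomal glycoprotein used as a TFEB readout, had 2, 2 and 56 reads in control and 13, 2 and 1 reads in DKO libraries. Only control library 3 and DKO library 1 exceeded 3 reads, so no fold is given. In untreated DKO kidneys Gpnmb stood at 4.6, 1.80 and 0.502 FPKM.

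Of 41 gene lists of function and cell type, none held a gene called by edgeR under rapamycin. Over the edgeR and DESeq2 settings some members had a lowest adjusted p under 0.05. Among them were Tsc2 (5.65e-05), Tfeb (0.000705), Scd1 (0.0059), Umod (0.038) and, of the lysosome list, Arsb (0.024). The lysosome list has 96 genes and comes from the study, which drew it from KEGG and showed it for these same kidneys. Its median log2 fold change was 0.04 under rapamycin, 0.22 under vehicle and 0.18 in untreated mice, beside 0.00, 0.01 and 0.00 for all tested genes. Under vehicle 15 members were called higher and none lower, and in untreated mice 12 and none, where 5.37% and 2.33% of all genes at this level were called higher. Without the 2 adrenal libraries 6 were called higher under vehicle (median 0.25), where that fit called 1.25% of all genes higher. Without untreated DKO library 1 there were 9 in untreated mice (median 0.19), beside 1.87% of all genes. Under rapamycin 2 members had an unadjusted p under 0.05, a share near the 2.5% of all genes with such a p and a higher level, and both were higher: Arsb, a sulfatase (log2 fold change 0.59), and Atp6v0a2, a subunit of the proton pump (0.21). The most abundant members, Napsa and the saposin precursor Psap, stood at 914 ± 160 and 477 ± 27 FPKM in control and at 799 ± 100 and 619 ± 73 FPKM in DKO kidneys.

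Within the lysosome the proton pump and the proteases differed most between the arms. The 9 subunits of the V-ATPase had medians of 0.04 under rapamycin, 0.53 under vehicle and 0.42 untreated, with 5 of them called higher under vehicle, beside 5.37% of all genes. Its accessory subunit Atp6ap1 stood at 71.8 ± 4.2 FPKM in rapamycin control and 76.6 ± 2.1 FPKM in rapamycin DKO kidneys, and at 83.7 ± 3.1 and 121 ± 15 FPKM under vehicle. The 14 proteases had medians of 0.00, 0.31 and 0.22. Legumain, Lgmn, stood at 264 ± 9.0 FPKM in control and 282 ± 11 FPKM in DKO kidneys under rapamycin. The 31 hydrolases (0.04, 0.13 and 0.11), 18 membrane proteins (0.07, 0.18 and 0.17) and 24 sorting factors (0.10, 0.17 and 0.14) differed less. Of 18 established TFEB targets 6 were called higher under vehicle and 5 in untreated mice, beside 5.37% and 2.33% of all genes, and the medians were 0.00, 0.38 and 0.37. Cathepsin D, Ctsd, was at 166 ± 5.5 FPKM in rapamycin control and 177 ± 20 FPKM in rapamycin DKO kidneys, against 162 ± 50 and 357 ± 58 FPKM under vehicle. Lamp1, the other leading target, stood at 466 ± 18 and 514 ± 18 FPKM under rapamycin. The 22 autophagy genes had medians of 0.03, 0.11 and 0.06, and the 28 genes of the TSC complex and mTORC1 pathway 0.01, 0.02 and -0.03.

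The metabolic lists were described in the same order of arms, rapamycin, vehicle and untreated. The 23 tested genes of ATF4 targets and serine and one-carbon enzymes had medians of 0.02, 1.07 and 1.21. Under vehicle 7 were called higher and 1 lower, beside 5.37% and 3.05% of all genes, and in untreated mice 4 higher, beside 2.33%. Under rapamycin 4 of the 23, beside 2.5% of all genes, had an unadjusted p under 0.05 and a higher level in DKO kidneys: Asns, Ddit4 (log2 fold change 0.73), Psat1 (0.66) and Nupr1 (1.54). With a library left out, Ddit4 ranged from 0.46 to 0.97 and Psat1 from 0.42 to 1.04. Nupr1, a stress-induced chromatin protein, stood at 7.78, 6.22 and 12.1 FPKM in control and at 39.6, 9.65 and 26.4 FPKM in DKO libraries, which overlap. Shmt2 and Slc3a2, the most abundant members, gave -0.12 and -0.08. Sterol and fatty acid synthesis (23 genes) had medians of 0.14, 0.40 and 0.24. None was called by edgeR under rapamycin and 6 were called higher under vehicle, beside 5.37% of all genes. Glycolysis and HIF genes (-0.06, 0.25 and 0.10), fatty acid oxidation genes (-0.13, -0.26 and -0.61) and the 13 mitochondrially encoded genes (-0.11, -0.35 and -0.28) also had medians nearer to 0 under rapamycin. Medians were 0.05, 0.08 and 0.14 for ribosome biogenesis, -0.04, -0.13 and -0.17 for NRF2 targets and 0.03, 0.01 and 0.23 for iron handling.

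Cell and tissue lists are given in the same order of arms. The 26 cell cycle genes had medians of -0.14, 0.79 and 1.73, with none called under rapamycin, none under vehicle and 1 in untreated mice. Macrophage markers (16 genes) had medians of -0.09, 0.68 and 1.66, and their summed level ranged from 56.6 to 79.2 FPKM in rapamycin control and from 48.0 to 73.4 FPKM in rapamycin DKO kidneys. Under vehicle the sums were 62.5 to 78.1 FPKM in control and 89.4 to 124 FPKM in DKO kidneys, without overlap. The 2 adrenal libraries stood at 89.4 and 124 FPKM and vehicle DKO library 3 at 93.7 FPKM. Of the macrophage markers none was called higher under vehicle and 1 was called lower, beside 5.37% and 3.05% of all genes. Tubular injury genes had medians of -0.06, 0.35 and 0.99, and osteopontin, Spp1, their most abundant member, stood at 1054 ± 120 FPKM in control and 1168 ± 75 FPKM in DKO kidneys under rapamycin. Extracellular matrix genes had 0.05, 0.28 and 0.43. Proximal tubule markers had -0.08, -0.43 and -0.72, with 5 called lower under vehicle and 4 in untreated mice, beside 3.05% and 1.56% of all genes. Intercalated cell markers had -0.02, 0.58 and 0.46, with 6 called higher under vehicle, beside 5.37% of all genes, and podocyte markers -0.12, -0.56 and -0.70. Thick limb and distal convoluted tubule markers had -0.10, -0.32 and -0.21, principal cell markers -0.03, 0.28 and 0.23, endothelial markers -0.05, -0.12 and -0.47 and fibroblast markers 0.21, 0.20 and 0.43. Medians were 0.00, -0.20 and -0.26 for polycystic kidney disease genes, -0.19, 0.02 and -0.29 for IGF and insulin genes, 0.01, -0.64 and -0.63 for the renin-angiotensin system and 0.01, -0.22 and -0.30 for calcium, phosphate and klotho genes. Markers of T cells (0.40, 0.75 and 2.90), B cells (0.58, 0.03 and 1.45) and adipocytes (0.54, 0.01 and 0.16) rest on 5 to 6 lowly or variably expressed genes.

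In the fit without untreated DKO library 1 and in the fit without the 2 adrenal libraries, fewer genes were called in all. The untreated medians of several of these lists depended on untreated DKO library 1. Without it they were 0.21 for macrophage, 0.49 for T cell and 0.30 for B cell markers, 1.33 for cell cycle, 0.30 for tubular injury and 0.10 for extracellular matrix genes, and -0.46 for proximal tubule markers, of which 1 was then called lower, beside 0.62% of all genes in that fit. Fibroblast markers had -0.006 and principal cell markers 0.08 in the same fit. Under vehicle, principal cell markers had 0.08 without the 2 adrenal libraries. Without the 2 adrenal libraries the vehicle medians were 0.45 for macrophage and -0.22 for proximal tubule markers, the latter with none called, 0.71 for intercalated cell markers with 3 called higher, and 0.79 for cell cycle genes. For the TFEB targets they were 0.44 with 2 called higher, for the V-ATPase 0.52 with 1, for the ATF4 list 0.97 with 1 and for sterol and fatty acid synthesis 0.52 with 4, where 96 genes in all (1.25%) were called higher and 2 (0.026%) lower.

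The immediate early genes, which respond within minutes to stimulation or tissue handling, were the list with the largest median under rapamycin. The 17 genes had medians of 0.84, 0.74 and 0.37, and 5 of them (Fos, Egr2, Nr4a1, Btg2 and Zfp36) had an unadjusted p under 0.05 with a higher level under rapamycin, beside 2.5% of all genes, and none was called. The untreated median was 0.0044 without untreated DKO library 1. Fos stood at 5.61, 0.602 and 0.674 FPKM in control and at 14.9, 6.44 and 15.1 FPKM in DKO libraries. All DKO libraries lay above all controls, but control library 1 was close to DKO library 2, and without control library 1 the list's median was 1.52. Rapamycin Tsc2 KO libraries stood at 24.2, 0.739 and 25.4 FPKM for Fos, 2 of them above every control and DKO library and 1 at the level of the lower controls. Whether handling differed between the animals was not tested.

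**Figure D3:**
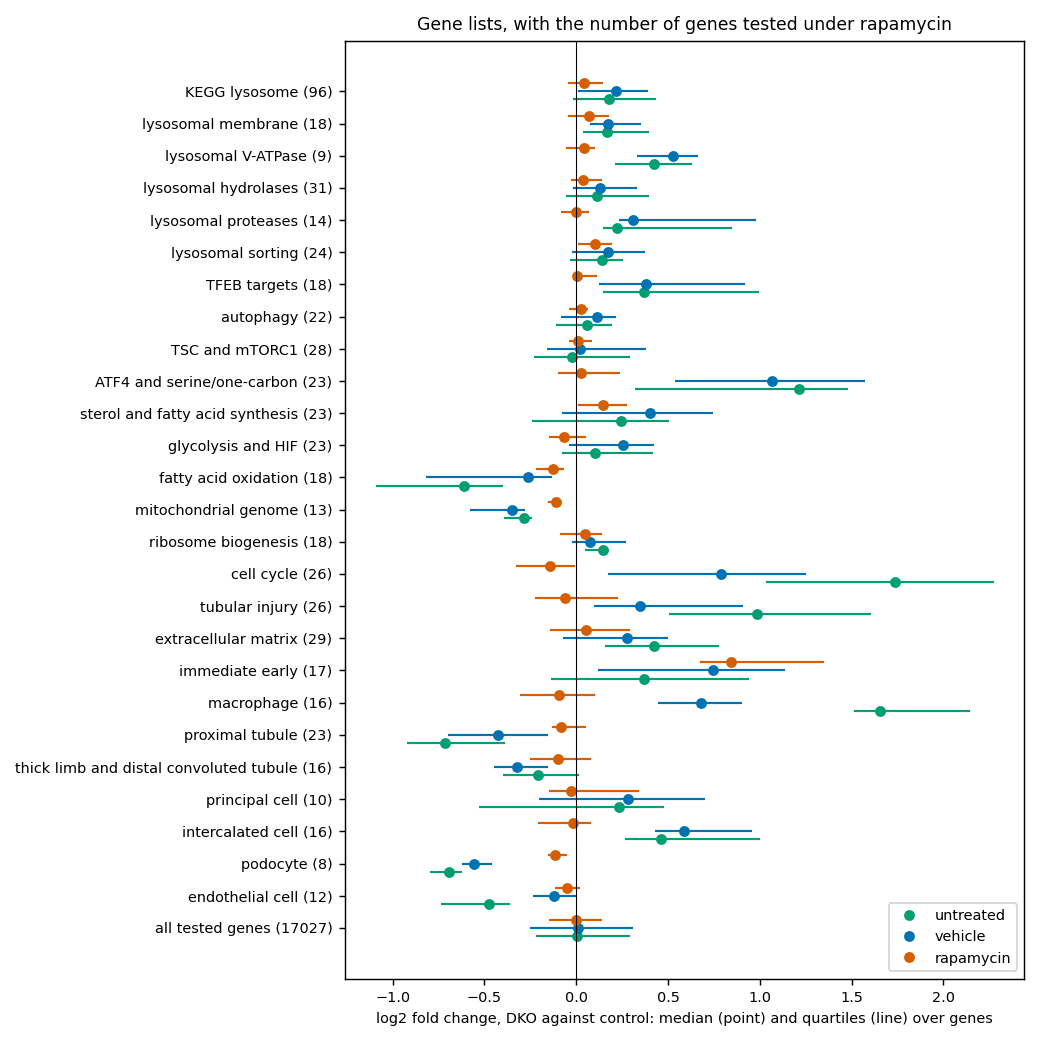
Median (points) and quartiles (lines) of the log2 fold change of DKO against control over the genes of 26 lists and over all tested genes, for rapamycin (orange), vehicle (blue) and untreated mice (green), with the number of genes tested in parentheses. Under rapamycin the medians of the lists drawn lie between -0.14 and 0.14 except for the immediate early genes at 0.84.

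The 299 genes that distinguished DKO from control kidneys in untreated mice were then followed in the drug cohort, whose mice played no part in choosing them. The 179 genes higher in untreated DKO kidneys had a median log2 fold change of 1.03 under vehicle and 0.16 under rapamycin. All 179 were positive under vehicle, and 141 (78.8%) were positive under rapamycin, beside 8513 of 17027 among all tested genes. Under rapamycin 34 of them (19.0%) had an unadjusted p under 0.05 in the same direction, against a background of 2.5% of all genes. The backgrounds here and below cover all tested genes, whereas every followed gene had a mean of at least 5 FPKM in an untreated group. The share among genes at that level is not given. The 120 genes lower in untreated DKO kidneys had medians of -0.64 under vehicle and -0.09 under rapamycin, where 89 were negative and 5 (4.17%) had an unadjusted p under 0.05 in that direction, against a background of 1.63%. With each rapamycin library left out in turn the count of 34 ranged from 12 (6.70%, without DKO library 1, background 1.55%) to 41, and it was 18 and 17 without control libraries 1 and 2. In the edgeR test of the difference between the 2 drug arms, 123 of the 179 genes had an unadjusted p under 0.05 with a smaller value under rapamycin, against a background of 7.38%. The median difference over the 179 genes was -0.75. It was -0.78 without the 2 vehicle DKO libraries carrying adrenal transcripts, a fit with 1 vehicle DKO library left. Without untreated DKO library 1, the library with the high immune markers, the set was 142 genes higher and 47 lower, of which 116 and 33 were in the first set. Those sets had medians of 0.19 and -0.07 under rapamycin, where 26 (18.3%) and 4 (8.51%) had an unadjusted p under 0.05 in the same direction.

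**Figure D4:**
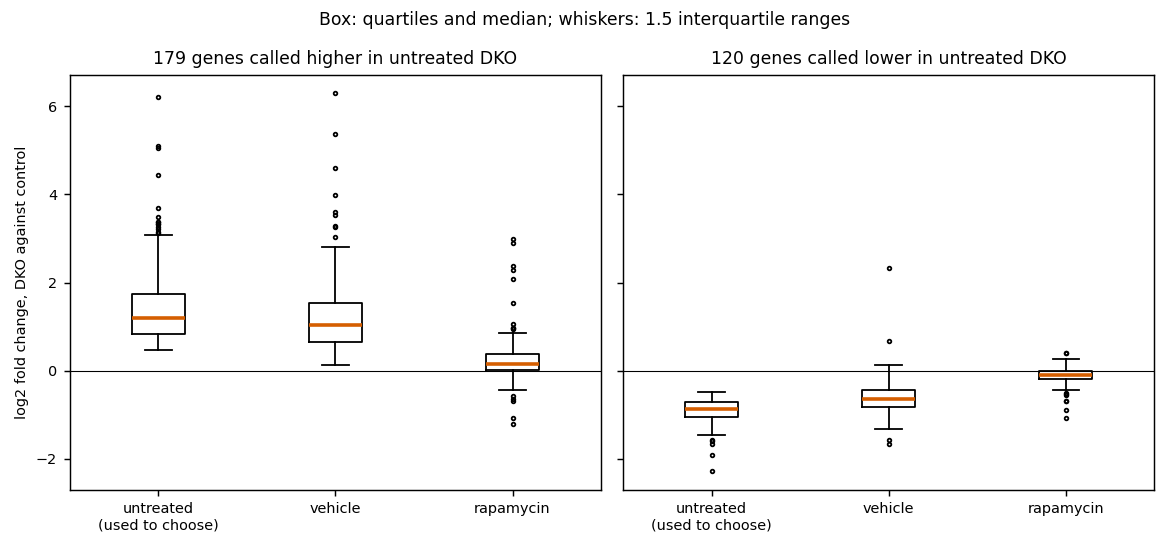
Log2 fold change of DKO against control for the 179 genes called higher (left) and 120 called lower (right) in untreated mice, shown in the untreated mice that chose them, in vehicle mice and in rapamycin mice. Boxes give quartiles and medians, whiskers 1.5 interquartile ranges, and under rapamycin the medians are 0.16 and -0.09.

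Among 125 genes called higher in both vehicle and untreated DKO kidneys, 106 were positive under rapamycin and 25 (20.0%, beside 2.5% of all genes) had an unadjusted p under 0.05 in that direction, of which 1, Gm8730, was called by edgeR. A few of the 25, picked after their values were seen, are described. Sesn3, a sestrin that restrains mTORC1, stood at 4.84, 4.01 and 5.31 FPKM in control and at 8.90, 6.35 and 8.79 FPKM in DKO libraries (log2 fold change 0.76, SE 0.23). It did not pass the adjusted p with edgeR, and its lowest adjusted p over the edgeR and DESeq2 settings was 0.0010. Ddit4, which encodes the mTORC1 inhibitor REDD1, stood at 8.02, 6.32 and 9.33 FPKM in control and at 17.6, 8.40 and 13.4 FPKM in DKO libraries. The Sesn3 groups did not overlap, while those of Ddit4 did.

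Clcn7, the lysosomal chloride-proton exchanger, stood at 8.09, 9.28 and 9.68 FPKM in control and at 11.7, 10.8 and 10.7 FPKM in DKO libraries (0.29, SE 0.10), without overlap. Under vehicle its log2 fold change was 0.73. Umod, the thick limb protein uromodulin, gave 0.51 under rapamycin and 1.03 under vehicle, and Pon2, a paraoxonase, 0.71 and 0.84. Their lowest adjusted p under rapamycin over the edgeR and DESeq2 settings was 0.038 for Umod and 0.00021 for Pon2. Guca2a, which encodes guanylin, gave 0.96 under rapamycin, 0.43 without DKO library 1 and 1.27 without control library 3, and 3.28 under vehicle. It stood at 8.15 ± 4.5 FPKM in rapamycin DKO and 40.5 ± 16 FPKM in rapamycin Tsc2 KO kidneys. Of 43 genes called lower in both other arms, 29 were negative under rapamycin, and the 1 with an unadjusted p under 0.05 (2.33%, beside 1.63% of all genes) was Tsc2. Without the 2 adrenal libraries the vehicle call stood for Clcn7 (adjusted p = 0.023), Ddit4 (0.040) and Guca2a (0.0028) and was lost for Sesn3 (log2 fold change 1.16, adjusted p = 0.12), Umod (1.2, 0.13) and Pon2 (0.61, 0.28, edgeR), in a fit with 1 vehicle DKO library left. Without untreated DKO library 1 the untreated call stood for Sesn3 (0.016), Ddit4 (0.028) and Guca2a (0.0055) and was lost for Clcn7 (log2 fold change 0.63, adjusted p = 0.070), Umod (1.02, 0.11) and Pon2 (0.57, 0.078, edgeR). With all libraries the untreated values of these 3 genes were 0.58, 1.09 and 0.59.

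The difference between the genotype contrasts of the 2 drug arms was tested gene by gene as an interaction term. It was called for 50 of 7930 genes (0.631%), 15 (0.189%) with a more positive and 35 (0.441%) with a more negative contrast under rapamycin than under vehicle. With each of 12 libraries left out in turn these counts ranged from 2 to 17 and from 7 to 54, and DESeq2 gave 91 and 140. In untreated mice, which did not enter this test, all 15 of the former were negative in DKO against control and all 35 of the latter were positive. Without the 2 vehicle DKO libraries with adrenal transcripts, most of the 50 genes lost the call and some other genes gained it. That fit leaves 1 vehicle DKO library, which is assumed to vary like the other groups.

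Akr1c14 and Slco1a6 had contrasts of opposite sign in the 2 arms. Akr1c14, a hydroxysteroid dehydrogenase, stood at 18.2, 24.2 and 17.5 FPKM in rapamycin control and at 34.5, 38.5 and 42.1 FPKM in rapamycin DKO libraries. Under vehicle it stood at 37.6, 36.8 and 24.4 FPKM in control and at 9.41, 9.80 and 8.71 FPKM in DKO libraries. The groups were separate in both arms and in opposite order, and the log2 fold changes were 0.94 and -1.83 (interaction 2.77, SE 0.28, adjusted p = 0.00045, edgeR). Rapamycin Tsc2 KO kidneys stood at 6.81 ± 1.2 FPKM, below the rapamycin controls that both comparisons share. Slco1a6, an organic anion transporter, stood at 36.1, 48.9 and 35.5 FPKM in rapamycin control and at 71.3, 66.8 and 60.1 FPKM in rapamycin DKO libraries. Under vehicle it stood at 82.0 ± 7.2 FPKM in control and 30.0 ± 3.5 FPKM in DKO kidneys (interaction 2.17, SE 0.26, adjusted p = 0.0011, edgeR). The rapamycin contrast alone did not pass for either gene with edgeR (adjusted p = 0.28 and 0.90). Over the edgeR and DESeq2 settings the lowest adjusted p of that contrast was 5.05e-07 for Akr1c14 and 0.00034 for Slco1a6. Sex-dependent kidney genes, a list of 10 that does not hold these genes, summed to 6737, 6690 and 4142 FPKM in rapamycin control and to 7960, 8047 and 7832 FPKM in rapamycin DKO libraries. Under vehicle the sums were 6166 to 10758 FPKM in control and 2984 to 3358 FPKM in DKO libraries, again in opposite order. Most of this sum is Kap, and over the 10 genes the median log2 fold change under rapamycin was -0.02 with 5 positive. None of the 10 was called in the interaction.

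In the other 4 genes with the smallest interaction p, a difference present under vehicle was small under rapamycin. Serpinb6a, a serine protease inhibitor, stood at 5.76, 5.22 and 6.63 FPKM in rapamycin control and at 7.26, 6.47 and 5.96 FPKM in rapamycin DKO libraries, which overlap. Under vehicle it stood at 5.59 ± 0.56 and 26.9 ± 5.0 FPKM (interaction -2.10, SE 0.28, adjusted p = 0.0043, edgeR). Aebp1, a secreted collagen-binding protein, stood at 17.6 ± 1.6 and 16.0 ± 0.32 FPKM under rapamycin and at 19.8 ± 0.93 and 56.6 ± 7.6 FPKM under vehicle. Fam129a, a regulator of translation under stress, stood at 4.16 ± 0.73 and 4.50 ± 0.39 FPKM under rapamycin and at 3.44 ± 0.24 and 11.4 ± 1.2 FPKM under vehicle. Syn2, a synapsin, stood at 1.55 ± 0.21 and 1.99 ± 0.095 FPKM under rapamycin and at 1.97 ± 0.31 and 7.58 ± 1.4 FPKM under vehicle. The interaction estimates of these 3 were -1.66, -1.61 and -1.59. All 6 genes kept the interaction call without the 2 adrenal libraries and with each of 12 libraries left out in turn.

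Among the listed genes called in the interaction, 5 are described. Ctsc, the lysosomal protease cathepsin C, stood at 5.29 ± 0.58 FPKM in control and 5.15 ± 0.44 FPKM in DKO kidneys under rapamycin, and at 4.80 ± 0.92 and 11.8 ± 2.6 FPKM under vehicle. Insig1 and Scd2 belong to sterol and fatty acid metabolism, and their contrasts were 1.19 and 2.02 under vehicle and -0.08 and 0.35 under rapamycin. Cdkn1a, which encodes the cell cycle inhibitor p21, stood at 2.72 ± 0.083 and 9.51 ± 0.34 FPKM under vehicle and at 3.14 ± 1.4 and 2.93 ± 0.65 FPKM under rapamycin. Ace, the angiotensin-converting enzyme, was the 1 of the 5 with a lower level in vehicle DKO kidneys, 17.4 ± 1.8 against 40.0 ± 8.6 FPKM, and stood at 37.9 ± 3.9 against 32.1 ± 6.3 FPKM under rapamycin. Without the 2 adrenal libraries, in a fit with 1 vehicle DKO library left, the call stood for Ctsc and Insig1 and was lost for Scd2, Cdkn1a and Ace. The vehicle contrasts in that fit were 1.96 for Scd2, 1.75 for Cdkn1a and -1.07 for Ace. With 12 libraries left out in turn, the call stood in 6 fits for Ctsc, 5 for Cdkn1a, 3 for Ace, 1 for Insig1 and 0 for Scd2.

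**Figure D5:**
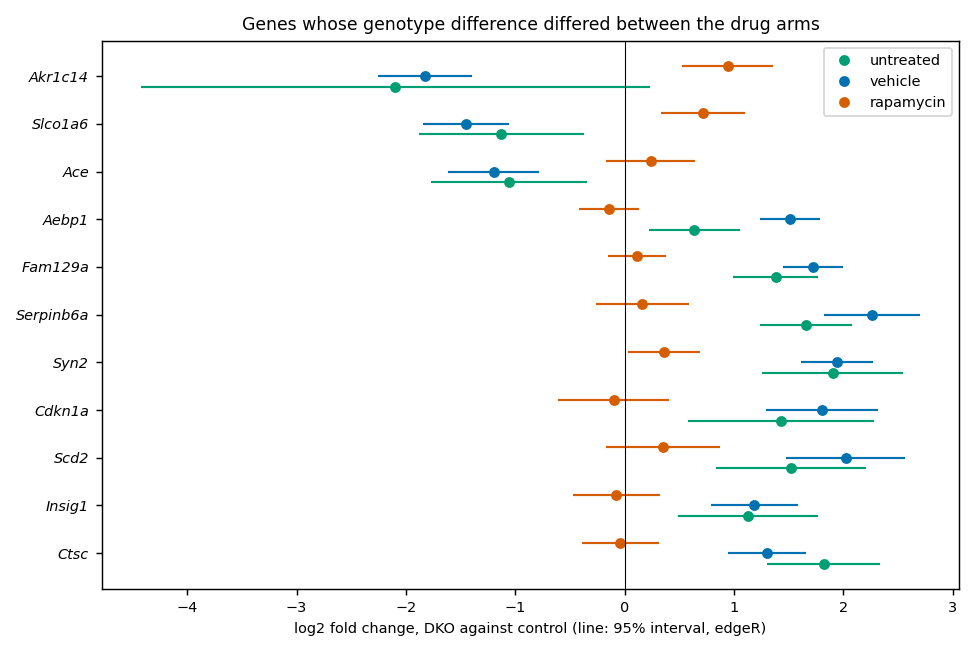
Log2 fold change of DKO against control with its 95% interval for 11 genes called in the interaction, under rapamycin (orange), under vehicle (blue) and in untreated mice (green). Under rapamycin 9 of the 11 estimates lie between -0.14 and 0.36, and Akr1c14 and Slco1a6 lie at 0.94 and 0.72.

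Mice lacking Tsc2 alone and given the same rapamycin course share their controls with the DKO comparison, so the 2 sets of values are only set side by side. There 62 of 7555 genes were called (0.821%), 52 higher (0.688%) and 10 lower (0.132%), against 1 in DKO kidneys, and this difference in counts was not tested. Rragd stood at 28.5 ± 5.6 FPKM in rapamycin Tsc2 KO and 15 ± 2.1 FPKM in rapamycin DKO kidneys, and Syn2 at 4.02 ± 0.085 and 1.99 ± 0.095 FPKM. Tfeb itself stood at 5.70 ± 1.5 FPKM in rapamycin Tsc2 KO and 3.27 ± 0.014 FPKM in rapamycin DKO kidneys.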

How the data were processed

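Poly-A RNA of whole kidneys was sequenced as non-directional libraries, so reads of a gene and its antisense partner cannot be separated. The authors deposited counts, whole numbers of reads per gene without normalization, and FPKM, scaled by the authors for gene length and library size. The submitters' processing notes name STAR 2.6.1d, HISAT2 2.0.5, featureCounts 1.5.0-p3, DESeq2 1.20.0 and mm10, without roles. The test was edgeR 4.0.16 under R 4.3.3 (filterByExpr with a minimum count of 10, TMM, glmQLFit and glmQLFTest, 18 libraries and 6 groups in one fit, 12 libraries and 4 groups for untreated mice). P-values were adjusted by Benjamini-Hochberg over all tested genes, and alternatives used DESeq2 1.42.0. FPKM values describe levels. The fit was tested on simulated data. Replicates are separate mice, and no 2 rapamycin libraries of a group agreed within sampling noise. The paper's methods name no differential expression test for the RNA sequencing, so the tool was chosen here.

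Named were 9 genes of the study, protein-coding genes called and not overlapping (none were found), up to 4 called genes or otherwise the 2 most abundant members of a list, and 6 protein-coding genes with the smallest interaction p. Of the list members only some are described, and some results are not reported here. Other genes are marked as named after their values were seen or stand for a list's calls. The 568 list symbols were all matched. Members and lists were chosen with earlier results of these data known. P-values measure the spread between these mice.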

Additional observations from a re-analysis of the deposited data

Results flagged for a closer look

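The genotype contrast differed between rapamycin and vehicle mice, by a test of the difference itself, for 50 genes. Those described in the report had interaction log2 values of 2.77 for Akr1c14, 2.17 for Slco1a6 and 1.44 for Ace. The value was -1.66 for Aebp1, -1.61 for Fam129a, -2.10 for Serpinb6a and -1.59 for Syn2. It was -1.67 for Scd2, -1.26 for Insig1, -1.34 for Ctsc and -1.90 for Cdkn1a. With 12 libraries left out in turn, the call stood in 6 fits for Ctsc, 5 for Cdkn1a, 3 for Ace, 1 for Insig1 and 0 for Scd2. For the other genes named here it stood in all 12 fits. With 3 libraries per group, no group was large enough for the test of single outlying samples.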

How the results depend on the processing

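The rapamycin count of 1 gene higher and 0 lower was the same with edgeR on the 2 groups, with RLE normalization, with the FPKM minimum in every library and with the replicate number as a block. It was 4 and 7 with DESeq2 on all 6 groups, 50 and 48 with DESeq2 on the 2 groups, 4 and 1 without the low-count filter and 3 higher without the FPKM minimum, and the cause was not tested. With each library left out in turn the lower count ranged from 0 to 1, the 1 being Gm26809 without DKO replicate 1. Vehicle counts were 657 and 457 with DESeq2, ranged from 178 to 451 and from 62 to 312 with a library left out, and were 96 and 2 without the 2 adrenal libraries, an alternative chosen after seeing the data. Untreated counts were 415 and 341 with DESeq2, 127 and 53 with the replicate block, and ranged from 43 to 145 and from 11 to 83. Interaction counts were 91 and 140 with DESeq2, 10 and 35 with the replicate block, ranged from 2 to 17 and from 7 to 54, and were 2 and 19 without the adrenal libraries. Same-numbered rapamycin samples correlated at -0.239, 0.157 and 0.167 in their deviations, and pairs with unlike numbers at -0.303 to 0.176. So few pairs cannot settle whether same-numbered samples share more than a number. Xist as a covariate was not run because the drug-cohort libraries did not differ in sex, although the level of Xist varied. With a library left out, these log2 fold changes under rapamycin changed sign: Mthfd2 -0.12 to 0.14, Lamtor1 -0.0677 to 0.0275, Flcn -0.0959 to 0.091, Rheb -0.0796 to 0.0364, Neu1 -0.14 to 0.0255, Lamtor5 -0.0755 to 0.021, Ctsd -0.0085 to 0.14, Gabarap -0.0276 to 0.081, Fads2 -0.0532 to 0.14, S100a11 -0.0133 to 0.0999, Csf1r -0.15 to 0.0265, Lyz2 -0.0852 to 0.38, Miox -0.25 to 0.0893, Hsd11b2 -0.12 to 0.0313, Rhcg -0.0938 to 0.0854, Ctsc -0.13 to 0.0224, Cdkn1a -0.41 to 0.26. Flcn was also -0.0001 with DESeq2 on 2 groups and -0.0009 with the block. With a library left out, list medians ranged as follows, every list whose median changed sign included: lysosomal membrane 0.023 to 0.13, hydrolases -0.0099 to 0.0469, TSC and mTORC1 -0.0384 to 0.0406, TFEB targets -0.0073 to 0.0593, autophagy -0.0169 to 0.0463, immediate early genes 0.56 to 1.52, NRF2 -0.0752 to 0.0491, polycystic kidney disease genes -0.0497 to 0.0441, T cell -0.65 to 0.69, B cell 0.18 to 1.54, proximal tubule -0.11 to -0.0396, principal cell -0.12 to 0.0527, sex-biased kidney genes -0.12 to 0.24, adipocyte -0.66 to 2.48, extracellular matrix -0.22 to 0.19, fibroblast -0.14 to 0.41, endothelial -0.21 to 0.13, cell cycle -0.38 to 0.0022, macrophage -0.24 to 0.0456, V-ATPase -0.0018 to 0.0729, proteases -0.0385 to 0.0181, ATF4 and serine and one-carbon -0.10 to 0.0719, glycolysis and HIF -0.14 to 0.0116, tubular injury -0.16 to 0.0084, iron -0.0023 to 0.0795, renin-angiotensin -0.0181 to 0.044, calcium, phosphate and klotho -0.0294 to 0.0639, intercalated cell -0.0844 to 0.0261. Depth limits genes such as Gpnmb, with few reads.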
